A study of Mus musculus with 6 samples.

Results

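The islet hormones and granins are the secretory products by which the endocrine cells of the pancreas are recognised. They were taken by name: the hormone genes Ins1, Ins2, Gcg, Sst, Ppy, Pyy and Iapp, and the granin genes Chga, Chgb and Scg2. All 10 were found among the 23099 gene symbols of the files, and 9 of them had a mean level of at least 1 over the 6 libraries and were tested; Chgb, with a mean of 0.894, fell under that minimum. RNA was sequenced from whole pancreas of 8-week-old mice, as polyadenylated RNA in stranded libraries, in 3 libraries of wild-type (WT) and 3 of Ela1-Myc mice. Ela1-Myc mice carry, as the name of the line says, the growth-promoting transcription factor Myc under the promoter of Ela1, an elastase gene of the enzyme-secreting acinar cells, so the transgene is not aimed at the islets. Myc itself was at 52.0, 34.4 and 34.2 in the Ela1-Myc libraries and at 0, 4.10 and 0 in the WT libraries. No other allele or treatment is named for either group, and the labels do not say whether a library came from 1 animal. Levels are the authors' adjusted FPKM, a read density per length of transcript, divided by 100000.

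Islets are small groups of endocrine cells scattered through the acinar tissue. Beta cells make insulin and co-secrete islet amyloid polypeptide, alpha cells make glucagon, which raises blood glucose, delta cells make somatostatin, which restrains the other islet cells, and gamma cells make pancreatic polypeptide. Mice have a pair of insulin genes, Ins1 and Ins2. Each hormone is cut from a longer precursor inside dense-core granules, and the granins are acidic granule proteins that help to pack this cargo. In whole pancreas these RNAs come from a small part of the tissue, so their level depends both on how many islet cells went into the extract and on how much RNA each held; fewer cells of a type and less RNA per cell cannot be told apart here.

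Sequence bears on these values in more than 1 way. Ins1 (chr19:52264323-52265458, plus strand, 2 exons) and Ins2 (chr7:142678656-142679708, minus strand, 3 exons) share most of their coding sequence, in the coordinates of the GRCm38 files and the GENCODE M21 transcripts. Over the 327 aligned coding bases 302 (92.4%) were identical. Their longest common stretch, coding bases 271 to 326 of Ins1 and 277 to 332 of Ins2, ran for 56 bases and is shown in GENCODE M21 sequence because a read lying within it cannot tell the genes apart:
Ins1 and Ins2: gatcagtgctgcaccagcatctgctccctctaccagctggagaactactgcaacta
The split of reads between Ins1 and Ins2 may therefore be uncertain, and their sum less so. How many reads lay within shared stretches was not measured. The other related pairs lay further apart: Ppy and Pyy, which encode peptides of the same family and are neighbours on chromosome 11 with 5375 bases between them, were identical at 53.6% of aligned coding bases with no common stretch over 8 bases, and Chga and Chgb at 59.7% with none over 13.

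In the promoters, the cAMP response element, a site read by factors that respond to cAMP signalling, links the somatostatin gene with the granin genes. RefSeq starts (GRCm38.p6) were matched for 9 of the 10 genes, all but Ins2, and the 250 bases before each start were searched. The full element TGACGTCA was found before Sst (position -48, counted back from the start), Chgb (-72) and Scg2 (-68), and its core TGACGT, which is part of it, also before Chga (-44). The 28-base windows that hold them are given on the strand of each gene, from chr16:23890875-23890902, chr12:102554887-102554914, chr2:132781560-132781587 and chr1:79440077-79440104, with the element in capitals:
Sst: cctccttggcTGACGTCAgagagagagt
Chga: ggcggtcctaTGACGTaatttcctgggt
Chgb: ggctgctccgTGACGTCAgggctgagcg
Scg2: gctgagccggTGACGTCAgcgtggaatg
The full element stood in 3 of the 9 promoters and in 1.55% of all 32851 promoters of that length in the table, and the core in 4 of the 9 and in 6.47% of all. The starts used for Chgb and Scg2 lie inside the loci of the files, so the Chgb window lies within the gene as the files draw it and the Scg2 window overlaps it. In the GENCODE loci the Sst, Chgb and Scg2 windows all lie within the gene. The outer ends there, on the minus strand, are 23890958 for Sst and 79440120 for Scg2.

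Glucagon and pancreatic polypeptide, the hormones that were listed at 0 in 2 WT libraries, are shown next. Both promoters hold a TATA motif (TATAA on the sense strand, searched from position -45 to -20), Gcg at -24 and Ppy at -31, as Iapp and Scg2 do at -27; that is 4 of the 9 promoters, against 3.89% of all. Their 250 bases, from chr2:62483654-62483903 and chr11:102101320-102101569 on the minus strand, are shown with that motif in capitals:
Gcg: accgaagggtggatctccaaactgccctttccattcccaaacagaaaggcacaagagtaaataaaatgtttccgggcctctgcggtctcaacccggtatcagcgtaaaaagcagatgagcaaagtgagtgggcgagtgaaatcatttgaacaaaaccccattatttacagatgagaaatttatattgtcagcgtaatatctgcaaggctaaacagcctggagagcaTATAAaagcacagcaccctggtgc
Ppy: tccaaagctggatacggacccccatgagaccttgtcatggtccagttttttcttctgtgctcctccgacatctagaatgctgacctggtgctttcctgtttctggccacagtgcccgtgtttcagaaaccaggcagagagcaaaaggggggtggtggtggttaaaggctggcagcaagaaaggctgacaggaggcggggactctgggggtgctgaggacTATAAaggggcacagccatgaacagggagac
Ins1 alone held the insulin E box GCCATCTG (position -86), present in 1.11% of all promoters. TAAT, the core read by homeodomain factors, was found in 5 of the 9 and in 54.9% of all, and CACGTG, the E box bound by Myc, in 0 of the 9 and in 6.02% of all. TATAA was read on the sense strand and the other motifs on both strands. The Pyy promoter also holds TATAA, but further upstream than the searched window, so it was not counted. The RefSeq start of Pyy (102107776) lies inside its GENCODE locus, whose outer end on the minus strand is at 102107832. A match describes these letters, not a used site.

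**Figure D1:**
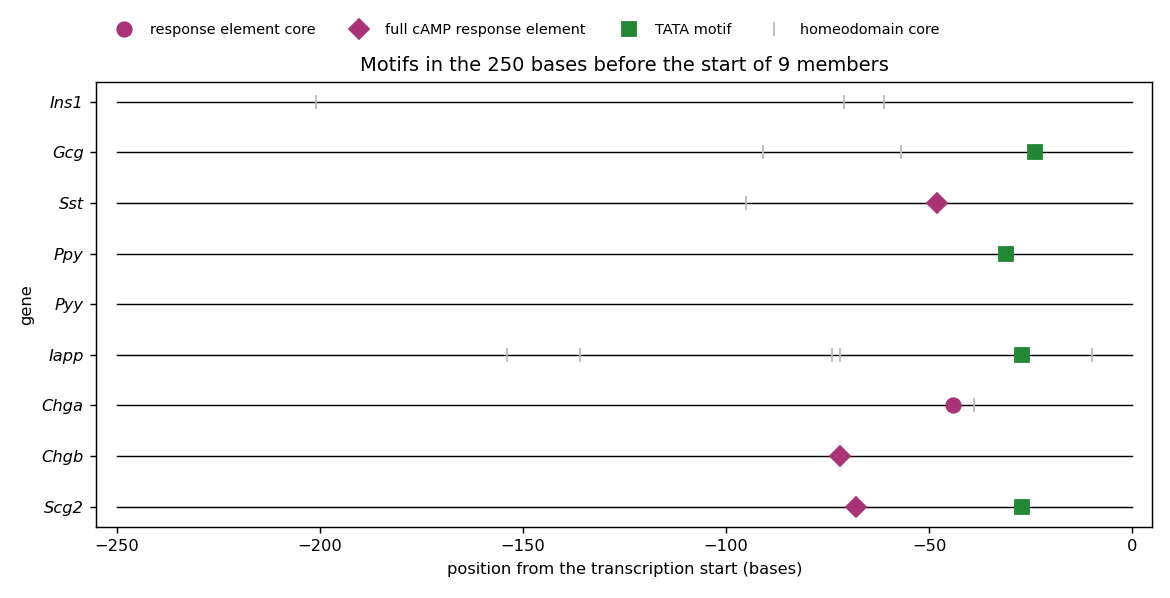
Position of motif matches in the 250 bases before the RefSeq start of 9 islet hormone and granin genes, with the distance from the start on the horizontal axis in bases. Diamonds mark the full cAMP response element (Sst, Chgb, Scg2), the circle its core alone (Chga), squares the TATA motif (Gcg, Ppy, Iapp, Scg2) and grey ticks TAAT.

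The libraries were unlike each other in ways that touch every value below. All 10 genes were listed at 0 in WT replicate 1, while an exact 0 in these files is not a measured absence: WT replicates 1 and 3 list 3 and 4 of 10 genes that every cell uses at 0. Of the 8802 genes tested, 1061 (12.1%), 592 (6.73%) and 1426 (16.2%) stood at 0 in WT replicates 1 to 3, and at most 29 in an Ela1-Myc library. The digestive enzymes took 90.5% to 92.1% of the summed values in WT and 61.7% to 73.8% in Ela1-Myc. RNA integrity numbers were 7.1 to 7.3 in WT and 7.2 to 8.8 in Ela1-Myc. Markers of other cells differed too: adipocyte genes summed to 222, 41.7 and 15.7 in WT replicates 1 to 3 and to 138, 452 and 241 in Ela1-Myc, and lymphocyte genes to 41.9, 0.419 and 0 and to 21.6, 211 and 133. Macrophage genes summed to 0.952 to 46.6 in WT and 254 to 835 in Ela1-Myc, where 9 of 9 tested rose (7 after scaling), stellate and fibroblast genes to 49.3 to 113 and 373 to 579 (7 of 8; 3 after scaling), and duct genes to 74.8 to 211 and 203 to 381 (6 of 8; 2 after scaling). These counts stand beside 70.2% of all tested genes called higher, and 18.1% after scaling, and the duct counts were near those shares. Of the genes that every cell uses, 7 of 10 rose too (1 after scaling). The part of these differences in the results was not tested. Because the median log2 change of all tested genes was 1.22 on the deposited scale, each result is also given after median-of-ratios scaling, which divides a library by its typical level over genes above 0 in all 6 and left a median of 0.24.

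Of the 9 tested genes 7 rose in Ela1-Myc as deposited, namely Ins1, Ins2, Gcg, Sst, Ppy, Pyy and Chga, beside 70.2% of all tested genes called higher and 0.239% called lower (limma, Benjamini-Hochberg adjusted p under 0.05). None of the 9 fell, at an unadjusted p under 0.05 either. Their share, 7 of 9, was near that background. Their median log2 change was 3.73, beside 1.22 over all tested genes, and it was 1.73 beside 1.09 without WT replicate 1 and 1.56 beside 1.17 with listed zeros set to missing. After median-of-ratios scaling Sst and Ppy alone of the 9 rose, 2 of 9 beside 18.1% of all tested genes higher and 7.95% lower, with medians of 2.67 and 0.24, or 0.51 and 0.20 without WT replicate 1. Without WT replicate 1 the genes called higher were Gcg, Sst, Ppy and Pyy on the deposited scale, 4 of 9 beside 57.9% of all tested genes higher and 0.704% lower, and Ppy after scaling, 1 of 9 beside 18.4% higher and 7.27% lower. With the digestive enzymes left out and totals made equal, Gcg, Sst and Ppy rose, 3 of 9 beside 21.7% higher and 4.83% lower. With listed zeros set to missing, Sst, Ppy and Pyy rose, 3 of 9 beside 70.7% higher and 0.4% lower, and with scaling added none of the 9 passed (2 at an unadjusted p under 0.05), beside 13.3% higher and 8.33% lower. Under quantile normalization Sst and Ppy rose, 2 of 9 beside 10.7% higher and 15.6% lower. On the deposited scale Gcg, Sst, Ppy and Pyy were called without each of the 6 libraries in turn, Ins1 and Chga lost the call without WT replicate 1 or Ela1-Myc replicate 1 or 3, and Ins2 lost it without WT replicate 1 or any 1 Ela1-Myc library. Of these 6 fits, the share of all tested genes called is given only for that without WT replicate 1.

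**Figure D2:**
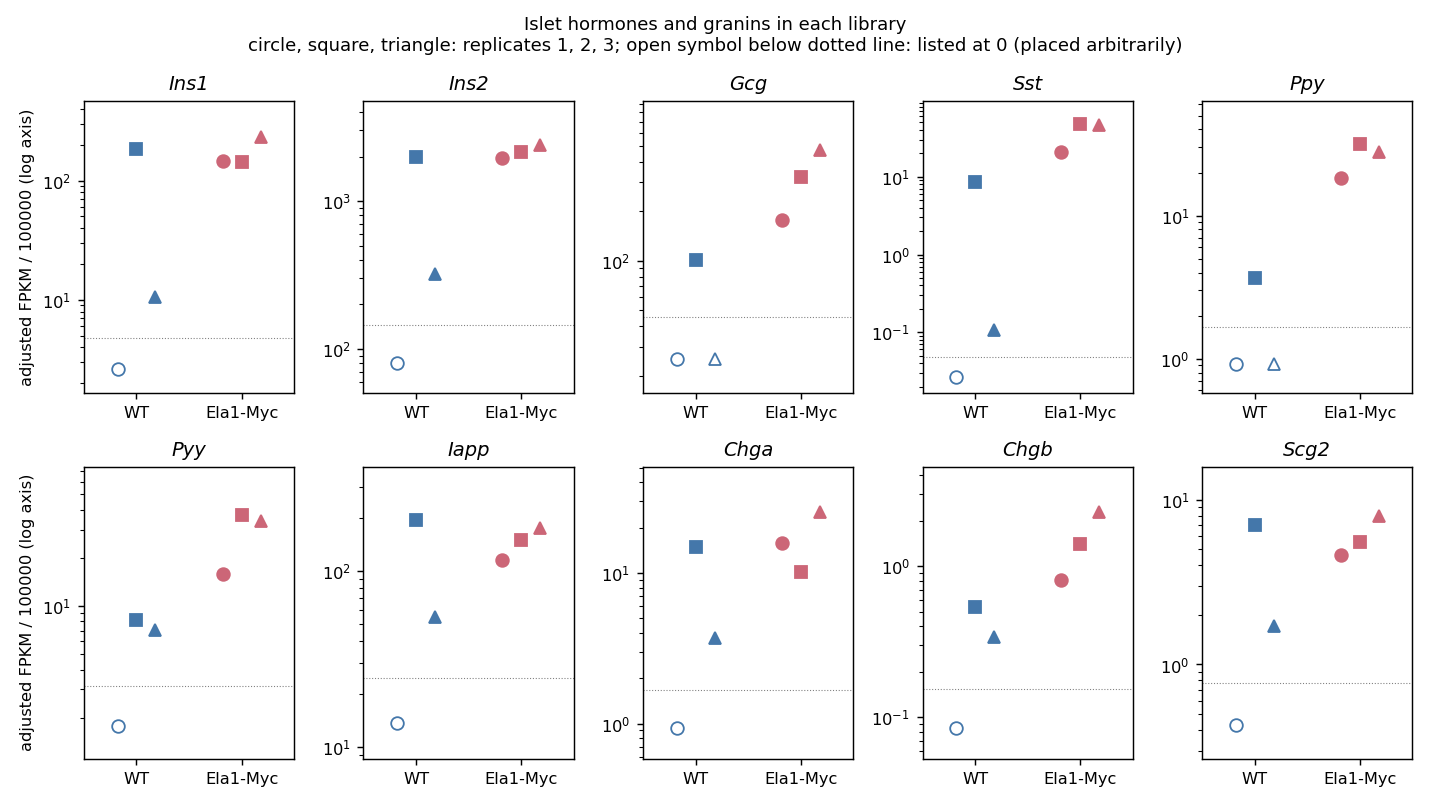
Level of each islet hormone and granin gene in each library (adjusted FPKM divided by 100000, log axis; a circle, square or triangle is replicate 1, 2 or 3). Open symbols under the dotted line are listed at 0 and are placed there only to be seen: all 10 genes in WT replicate 1, and Gcg and Ppy in WT replicate 3.

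Among the beta cell products, Ins2 was the most abundant of the 10 genes in all 5 libraries that listed it above 0. WT replicates 2 and 3 held 1972 and 322, and Ela1-Myc replicates 1 to 3 held 1950, 2152 and 2381 (2161 ± 216, SD, n = 3). WT replicate 2 lay within the Ela1-Myc range, so the groups overlapped, and the spread was in the WT libraries. Ins2 rose by 4.65 ± 1.89 (SE) on the log2 scale with the zero taken as measured (adjusted p = 0.0397), by 1.43 without WT replicate 1, where the call was lost (adjusted p = 0.111), and stood 0.13 apart without that replicate after scaling (adjusted p = 0.887). In scale-free terms its rank among all genes was 33 and 68 in WT replicates 2 and 3 and 40, 33 and 28 in Ela1-Myc.

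Ins1, the second insulin gene of rodents, reached 182 and 10.6 in WT replicates 2 and 3, against 146, 144 and 233 in Ela1-Myc (174 ± 50.6, SD, n = 3). WT replicate 2 was above 2 of the 3 Ela1-Myc libraries. Its log2 change of 3.73 ± 1.34 (SE; adjusted p = 0.0227) passed the test on the deposited scale, and 1.89 without WT replicate 1 did not (adjusted p = 0.135). Iapp, which encodes the amyloid peptide stored with insulin, reached 195 and 55.0 in WT replicates 2 and 3, against 116, 149 and 176 in Ela1-Myc (147 ± 29.9, SD, n = 3). WT replicate 2 was above all 3 Ela1-Myc libraries. Iapp was not called (log2 change 2.72 ± 1.40, SE; adjusted p = 0.0930), and without WT replicate 1 its change was 0.48 on the deposited scale and -0.82 after scaling (adjusted p = 0.621 and 0.237).

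Glucagon is the alpha cell hormone. Gcg (chr2:62474530-62483653) stood at 0, 100 and 0 in the WT libraries, against 176, 324 and 468 in Ela1-Myc (323 ± 146, SD, n = 3), so every Ela1-Myc library was above every WT library. The Ela1-Myc libraries were 1.75 to 4.66 times WT replicate 2, the sole WT library with a value. Its log2 change was 6.01 ± 1.36 (SE; adjusted p = 0.00178), 4.90 without WT replicate 1 (adjusted p = 0.0127) and 5.22 after scaling, where it missed the threshold (adjusted p = 0.0690) and Ela1-Myc replicate 1, at 105.1, lay just under WT replicate 2 at 107.5. With listed zeros set to missing, which leaves WT replicate 2 alone for WT, the change of Gcg was 1.56 ± 0.97 (SE) and lost the call (adjusted p = 0.141), beside 3.51 for Sst and 2.49 for Ppy.

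Somatostatin, the delta cell hormone, separated the groups on both scales. Sst (chr16:23889581-23890844) was at 0, 8.48 and 0.106 in the WT libraries, against 20.8, 47.5 and 46.9 in Ela1-Myc (38.4 ± 15.3, SD, n = 3). The lowest Ela1-Myc library was 2.45 times the highest WT library, and after scaling the values of 12.4, 31.4 and 24.4 still lay above the 9.07 of WT replicate 2. Sst rose by 4.08 ± 0.74 (SE; adjusted p = 0.000405), and by 3.28 ± 0.89 (SE) after scaling (adjusted p = 0.0376); without WT replicate 1 the scaled change of 2.75 lost the call (adjusted p = 0.0761), as it did without WT replicate 3 or any 1 Ela1-Myc library (adjusted p = 0.0660 to 0.134).

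Pancreatic polypeptide, the gamma cell hormone, was the lowest of the 7 hormones in WT replicate 2 and separated the groups on both scales. Ppy (chr11:102099931-102101300) was at 0, 3.68 and 0 in the WT libraries, against 18.2, 31.7 and 27.9 in Ela1-Myc (25.9 ± 6.97, SD, n = 3). The Ela1-Myc libraries were 4.95 to 8.63 times WT replicate 2. Ppy rose by 3.97 ± 0.57 (SE; adjusted p = 8.2e-05), by 3.23 ± 0.64 (SE) after scaling (adjusted p = 0.0153) and by 2.94 ± 0.73 (SE) after scaling without WT replicate 1 (adjusted p = 0.0330). The scaled call was lost without WT replicate 3 or Ela1-Myc replicate 2 or 3 (adjusted p = 0.0515, 0.0692 and 0.0672), with changes of 2.88 to 3.12. With the zeros set to missing and scaling together, WT replicate 2 alone stood for WT and the change of 1.69 lay at the threshold (adjusted p = 0.0501).

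Peptide YY belongs to the same peptide family as pancreatic polypeptide and is made in islets and in the gut. Pyy (chr11:102106676-102107776) was at 0, 8.13 and 7.05 in the WT libraries, against 16.0, 37.3 and 34.2 in Ela1-Myc (29.2 ± 11.6, SD, n = 3), with all 3 Ela1-Myc libraries above WT. WT replicates 2 and 3 were 1.15-fold apart in Pyy, the narrowest gap of the 8 genes above 0 in both, where Ins2 differed 6.13-fold and Sst 80.4-fold. Pyy rose by 2.76 ± 0.75 (SE; adjusted p = 0.00535) on the deposited scale and was not called after scaling (log2 change 1.74 ± 0.98, SE; adjusted p = 0.219), where WT replicate 3 at 13.0 was above Ela1-Myc replicate 1 at 9.54.

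The granins are the granule proteins of the set. Chga, the chromogranin A gene (chr12:102554969-102565027), was at 0, 14.9 and 3.73 in the WT libraries, against 15.9, 10.2 and 25.4 in Ela1-Myc (17.2 ± 7.68, SD, n = 3). WT replicate 2 lay within the Ela1-Myc range. Its log2 change of 2.02 ± 0.77 (SE; adjusted p = 0.0303) passed on the deposited scale; without WT replicate 1 it was 0.98 (adjusted p = 0.195), and -0.19 when scaling was added (adjusted p = 0.781). Scg2, the secretogranin II gene (chr1:79434669-79440090), was at 0, 7.01 and 1.71 in the WT libraries, against 4.64, 5.51 and 7.93 in Ela1-Myc (6.03 ± 1.71, SD, n = 3), overlapping, without a call (log2 change 1.31 ± 0.57, SE; adjusted p = 0.0532). Chgb, the chromogranin B gene (chr2:132781278-132795072), was the lowest of the 10 genes in 4 of the 5 libraries that listed it, at 0, 0.538 and 0.340 in WT, against 0.813, 1.40 and 2.27 in Ela1-Myc (1.49 ± 0.734, SD, n = 3). Each Ela1-Myc value exceeded each WT value, and in the fit without a minimum level it was not called (log2 change 0.93 ± 0.29, SE; adjusted p = 0.0506).

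**Figure D3:**
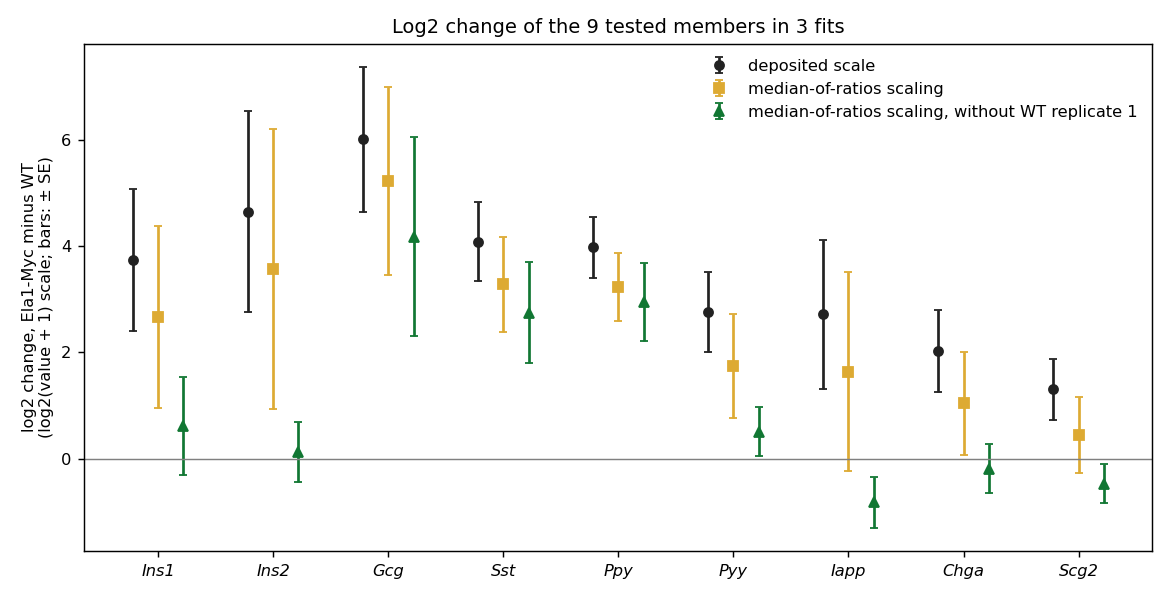
Log2 change, Ela1-Myc minus WT, of the 9 tested genes with its standard error (bars), in limma fits on the deposited scale (circles), after median-of-ratios scaling (squares) and after scaling without WT replicate 1 (triangles). In the last fit Gcg, Sst and Ppy lie at 4.18, 2.75 and 2.94 and the other 6 genes between -0.82 and 0.62.

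Without any fit, the lowest Ela1-Myc library exceeded the highest WT library for 5 of the 10 genes on the deposited scale (Gcg, Sst, Ppy, Pyy and Chgb), beside 75.3% of all tested genes, and for 2 of the 10 after scaling (Sst and Ppy), beside 30.4%. The reverse held for none of the 10, beside 0.534% of all tested genes, and 17.2% after scaling. WT replicate 2 was higher than the lowest Ela1-Myc library for the remaining 5, Ins1, Ins2, Iapp, Chga and Scg2. Against that replicate alone, the only WT library to list all 10 genes above 0, the mean of the Ela1-Myc libraries was 1.10 times as high for Ins2, 0.958 times for Ins1, 0.753 times for Iapp, 1.16 times for Chga and 0.860 times for Scg2. It was 3.21 times as high for Gcg, 4.53 times for Sst, 7.05 times for Ppy, 3.59 times for Pyy and 2.78 times for Chgb.

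The order of the levels, which are per length of transcript, followed the same division. In every Ela1-Myc library Ins2 ranked 1 and Gcg 2 among the 10 genes, and Chga, Scg2 and Chgb ranked 8, 9 and 10. In WT replicate 2 Gcg ranked 4, behind Ins2, Iapp and Ins1, and Chga ranked 5, ahead of Sst, Pyy and Ppy. WT replicate 3 had the same first 3 genes. Among neighbours in the Ela1-Myc order Gcg overlapped with Ins1, Ins1 with Iapp, and Sst, Pyy, Ppy and Chga with each other, while Ins2, Scg2 and Chgb stood clear of all others. The rank among all genes of the library, which no scale factor can change, was 251 for Gcg in WT replicate 2 and 234, 151 and 120 in Ela1-Myc; it was 160 and 206 for Iapp in WT replicates 2 and 3 and 308, 255 and 216 in Ela1-Myc.

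Summed over the 7 hormones, the level was 0, 2470 and 394 in WT, against 2443, 2887 and 3367 in Ela1-Myc (2899 ± 462, SD, n = 3), and WT replicate 2 lay above the lowest Ela1-Myc library (exact two-sided permutation p = 0.2; the smallest possible is 0.1). The insulin and amyloid genes made up most of this sum. Ins1, Ins2 and Iapp together were at 0, 2349 and 387 in WT, against 2212, 2446 and 2790 in Ela1-Myc (exact permutation p = 0.2). Gcg, Sst, Ppy and Pyy together were at 0, 121 and 7.16 in WT, against 231, 441 and 577 in Ela1-Myc, without overlap (exact permutation p = 0.1, the smallest possible; 0.2 without WT replicate 1). The 3 granins together were at 0, 22.4 and 5.78 in WT, against 21.4, 17.1 and 35.6 in Ela1-Myc (exact permutation p = 0.3).

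As a share of the summed values outside the digestive enzymes, the 7 hormones took 0%, 1.33% and 0.423% in WT and 0.855%, 1.20% and 1.48% in Ela1-Myc (1.18% ± 0.311, SD, n = 3; exact permutation p = 0.3). Of this, Ins1, Ins2 and Iapp took 0%, 1.27% and 0.416% in WT and 0.775%, 1.01% and 1.22% in Ela1-Myc, all lower than WT replicate 2 (exact permutation p = 0.4). Gcg, Sst, Ppy and Pyy took 0%, 0.0651% and 0.00769% in WT and 0.0808%, 0.183% and 0.253% in Ela1-Myc, without overlap (exact permutation p = 0.1, the smallest possible).

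Within the hormones the make-up could be compared in the 2 WT libraries that listed any of them, free of any factor per library. Gcg was 4.07% and 0% of the 7-hormone sum in WT replicates 2 and 3 and 7.20%, 11.2% and 13.9% in Ela1-Myc. Sst was 0.343% and 0.0268% in WT and 0.850%, 1.65% and 1.39% in Ela1-Myc, and Ppy was 0.149% and 0% in WT and 0.745%, 1.10% and 0.828% in Ela1-Myc. Each of these shares was higher in all 3 Ela1-Myc libraries than in both WT libraries. Iapp was lower throughout, at 7.91% and 14.0% in WT and 4.75%, 5.18% and 5.22% in Ela1-Myc, and so was Ins2, at 79.84% and 81.54% in WT and 79.81%, 74.56% and 70.72% in Ela1-Myc. Ins1 (7.37% and 2.69% against 5.99%, 4.99% and 6.91%) and Pyy (0.329% and 1.79% against 0.653%, 1.29% and 1.02%) overlapped. With 2 against 3 libraries the smallest exact p is 0.1, reached by Ppy and Iapp, and none of the 7 comparisons passed after adjustment (smallest adjusted p = 0.28).

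Ratios between single genes are free of any factor per library too. Neither ratios nor shares are free of an adjustment that is not a plain factor, and how the values were adjusted was not found. Iapp per Ins2 was 0.0990 and 0.171 in WT replicates 2 and 3 and 0.0595, 0.0694 and 0.0738 in Ela1-Myc, lower in all 3, a log2 difference of -0.95 (exact two-sided permutation p = 0.1, adjusted over 10 ratios 0.5). Sst per Ins2 was 0.00430 and 0.000328 in WT and 0.0107, 0.0221 and 0.0197 in Ela1-Myc, higher in all 3 (log2 difference 3.81; exact permutation p = 0.1, adjusted 0.5), and WT replicate 3 sets much of that size, since without it the difference was 1.95. Gcg per Ins2 was 0.0509 in WT replicate 2, the sole WT library with both, and 0.0902, 0.151 and 0.197 in Ela1-Myc, and Ppy per Ins2 was 0.00186 there and 0.00933, 0.0147 and 0.0117 in Ela1-Myc (exact permutation p = 0.25 for each, the smallest that 1 against 3 can give). Ins1 per Ins2 overlapped between the groups, at 0.0923 and 0.0330 in WT and 0.0750, 0.0669 and 0.0977 in Ela1-Myc (exact permutation p = 0.5).

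**Figure D4:**
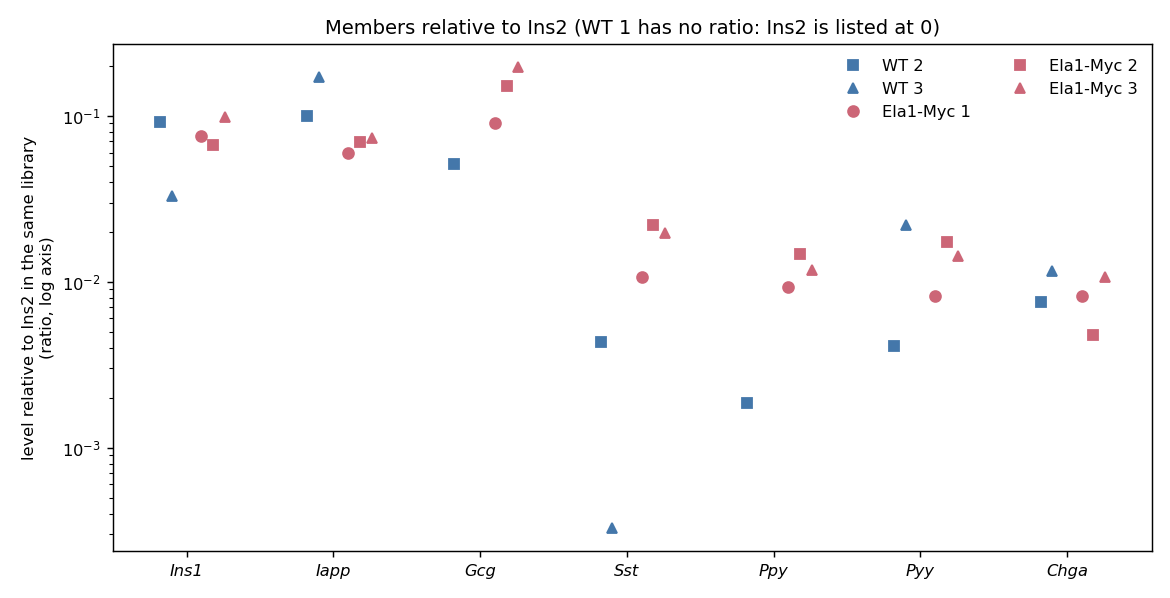
Level of 7 genes divided by that of Ins2 in the same library (log axis; blue for WT replicates 2 and 3, red for the Ela1-Myc libraries; WT replicate 1 has no ratio). Iapp per Ins2 lies lower and Sst per Ins2 higher in the 3 Ela1-Myc libraries than in both WT libraries, while Ins1, Pyy and Chga per Ins2 overlap.

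Between the neighbours on chromosome 11, Pyy was 2.21 times Ppy in WT replicate 2 and 0.877, 1.18 and 1.23 times Ppy in Ela1-Myc, a log2 difference of -1.03 (exact permutation p = 0.25, the smallest possible with 1 against 3). The granin ratios overlapped. Chgb was 0.0362 and 0.0913 of Chga in WT replicates 2 and 3 and 0.0511, 0.137 and 0.0894 in Ela1-Myc, and Scg2 was 0.471 and 0.459 of Chga in WT and 0.292, 0.539 and 0.312 in Ela1-Myc. Chga per Ins2, a granule protein set against its main cargo, was 0.00754 and 0.0116 in WT and 0.00816, 0.00475 and 0.0107 in Ela1-Myc. None of the 10 ratios passed after adjustment (adjusted p = 0.5 to 0.7).

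The machinery that makes these hormones was read from 7 lists of islet, granule and receptor genes, which hold 128 genes beside the 10, 40 of them tested. On the deposited scale 17 of the 40 rose and 1 fell, beside 70.2% of all tested genes higher and 0.239% lower, with a median log2 change of 0.86 beside 1.22. After scaling 2 of the 40 rose and 9 fell, beside 18.1% higher and 7.95% lower, with a median of -0.09 beside 0.24. The counts of each list below are to be read against these same shares. Counts in the lists therefore follow the scale.

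Of the 10 tested genes of prohormone processing 6 rose on the deposited scale, and after scaling 0 rose (limma) and 1 fell, against the 70.2% and 18.1% of all tested genes called higher. Pcsk2, the convertase that cuts proinsulin and proglucagon, was at 0, 1.82 and 0.573 in WT, against 1.79, 2.59 and 4.46 in Ela1-Myc (log2 change 1.21 ± 0.37, SE; adjusted p = 0.0107; 0.346 after scaling), a call lost without WT replicate 1 (adjusted p = 0.0605) or Ela1-Myc replicate 3 (adjusted p = 0.0706). Pam, which amidates peptides such as amylin and pancreatic polypeptide, went from 1.74, 2.90 and 1.51 to 7.73, 5.99 and 8.41 (adjusted p = 0.00331; 0.323 after scaling). Cpd, a carboxypeptidase of the secretory pathway, rose too (adjusted p = 0.00488; 0.589 after scaling). Pdia6, a disulfide isomerase of the endoplasmic reticulum, was not called, and Ero1lb, an oxidase of the same compartment that acinar cells also use, was the gene that fell after scaling (log2 change -2.29; adjusted p = 0.00592).

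Among the other granins and granule proteins 2 of 9 tested genes rose on the deposited scale and 0 fell, and after scaling 0 rose and 3 fell. Both that rose are neuroendocrine granule proteins. Resp18 was at 0, 4.66 and 0.508 in WT, against 5.83, 12.7 and 13.4 in Ela1-Myc, without overlap (log2 change 2.44 ± 0.55, SE; adjusted p = 0.00185; 0.107 after scaling), and Scg5, the chaperone of Pcsk2, was at 0, 1.49 and 0.432 against 1.18, 2.14 and 3.24 (adjusted p = 0.0185; 0.423 after scaling; 0.102 without WT replicate 1 and 0.0961 without Ela1-Myc replicate 3). Rab3d, a granule GTPase of acinar cells as well, was not called on the deposited scale and fell after scaling (log2 change -1.59; adjusted p = 0.0119). Cpe, which trims the cut hormones, was at 2.32, 15.2 and 11.2 against 40.4, 9.46 and 15.7 and was not called on either scale.

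The beta cell list gave 3 higher and 1 lower of 8 tested genes, and 0 higher and 2 lower after scaling. Nnat (adjusted p = 0.00437) and the vesicle protein gene Vamp2 (adjusted p = 0.0333) rose on the deposited scale and were not called after scaling; Vamp2 also lost the call without WT replicate 1 or 3 or Ela1-Myc replicate 1 or 3 (adjusted p = 0.0856 to 0.164). Glp1r, the receptor of the incretin GLP-1, fell on both scales, from 3.38, 5.25 and 4.90 to 2.03, 1.72 and 2.65 (log2 change -0.81 ± 0.33, SE; adjusted p = 0.0430; 0.00264 after scaling). The call on the deposited scale was lost without WT replicate 3 (adjusted p = 0.117) or any 1 Ela1-Myc library (0.0938 to 0.160), and that after scaling was not. Glp1r stood at 3.38 in WT replicate 1, where Ins1, Ins2 and Iapp were listed at 0. Over the 6 libraries its scaled level ran opposite to the mean of the hormones (Pearson r = -0.743, place 8244 of 8793 genes). Which cells its RNA came from was not tested. The defining beta cell markers, apart from Pdx1, followed Ins2 in overlapping between the groups or were too low to test. G6pc2 was at 0.00190, 4.12 and 1.49 against 2.49, 2.35 and 4.07. Slc30a8, the granule zinc transporter, was at 0, 1.44 and 0.869 against 1.09, 1.03 and 2.30. Ucn3 was at 0, 0.748 and 0.289 against 0.721, 1.10 and 1.499, and Slc2a2 at 0, 0.911 and 0.624 against 0.555, 0.741 and 1.44. Pdx1 is given below with the transcription factors.

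For the alpha, delta and gamma cells 4 of 8 tested genes rose on the deposited scale and 0 fell, and after scaling 2 rose and 2 fell. Hhex, the transcription factor of delta cells, was at 0, 0.341 and 0.281 in WT, against 1.69, 2.40 and 6.09 in Ela1-Myc and rose on both scales (log2 change 1.75 ± 0.33, SE; adjusted p = 0.000588; 0.0385 after scaling); duct cells express it too. The scaled call of Hhex was lost without any 1 library but Ela1-Myc replicate 1 (adjusted p = 0.0568 to 0.110). Gc, a vitamin D binding protein of alpha cells and of liver, had 0 throughout WT, against 233, 69.7 and 48.5 in Ela1-Myc. With those zeros taken as measured, Gc rose by 6.55 ± 0.58 (SE, limma adjusted p = 2.5e-06) and by 5.80 after scaling (adjusted p = 0.00157). Both calls held with each library left out in turn. Its order among the Ela1-Myc libraries was the reverse of the Gcg order. Rbp4, found in delta cells and in liver and fat, was at 1.12, 0.122 and 0 against 4.28, 13.6 and 9.08 (adjusted p = 0.000103; 0.0586 after scaling). Of those not called on the deposited scale, Ttr, transthyretin of alpha cells and liver, was at 4.26, 17.0 and 5.87 in WT, against 16.0, 17.8 and 22.7 (adjusted p = 0.0806; 0.635 after scaling). Slc38a5, an amino acid transporter, was at 64.5, 152.5 and 52.6 in WT, against 39.6, 19.9 and 34.3, below it in all 3 Ela1-Myc libraries; it was not called on the deposited scale (adjusted p = 0.104) and fell after scaling (log2 change -2.87 ± 0.36, SE; adjusted p = 0.00348). The alpha cell factors Irx1 and Irx2 stayed at or under 0.144 in all 6 libraries and could not be tested.

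Of the islet transcription factors 2 of 5 tested genes rose, Hhex among them, and 0 fell; after scaling 1 rose and 1 fell. Pdx1, which binds the insulin promoter, was at 0.116, 1.02 and 1.23 in WT, against 1.43, 1.29 and 1.70 in Ela1-Myc. Every Ela1-Myc library was above every WT library, with no call (limma adjusted p = 0.113; 0.752 after scaling). Foxa2, shared with acinar and duct cells, was not called on the deposited scale and fell after scaling (log2 change -0.94; adjusted p = 0.0468), and Foxo1 was not called on either. The other factors that define endocrine cells were low: Neurod1 reached 0.241, Isl1 0.692, Pax6 0.406 and Nkx6-1 0.884 at most. Among receptors of these hormones and related peptides 1 of 5 tested genes rose (Ramp2, a partner of the amylin and adrenomedullin receptors; adjusted p = 0.00407; 0.561 after scaling) and 1 fell (Glp1r); after scaling 0 rose and 2 fell. Sstr2, the somatostatin receptor, was at 0.959, 2.01 and 2.72 in WT, against 1.85, 0.928 and 1.45 in Ela1-Myc, not called on the deposited scale (adjusted p = 0.487) and lower after scaling (log2 change -1.14; adjusted p = 0.0299). Of other peptide hormones 2 were tested: Penk, the enkephalin precursor, rose from 2.84, 5.45 and 0.574 to 13.4, 15.5 and 16.1 (adjusted p = 0.00206; 0.176 after scaling), and Gal, the galanin precursor, at 28.3, 130 and 149 against 53.3, 42.7 and 47.3, was not called until scaling, where it was lower (log2 change -2.26; adjusted p = 0.0221).

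WT replicate 1 listed islet genes at 0 more often than genes at large, and some other lists as often. There 45 of the 128 islet, granule and receptor genes (35.2%) were listed at 0, beside 14.9% of all symbols, while in WT replicates 2 and 3 it was 12.5% and 18.8%, beside 9.50% and 20.4%. Some islet genes were above 0 in that library, among them Cpe at 2.32, Nkx2-2 at 0.314, Isl1 at 0.146 and Pdx1 at 0.116. In the same library 5 of 11 duct genes (45.5%), 5 of 11 gut epithelium genes (45.5%), 4 of 9 macrophage genes (44.4%), 3 of 9 stellate and fibroblast genes (33.3%) and 3 of 10 ubiquitous genes were at 0. None of the 7 acinar transcription factors, 10 endothelial, 9 lymphocyte or 8 adipocyte genes was at 0 there. The source of these zeros was not tested.

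**Figure D5:**
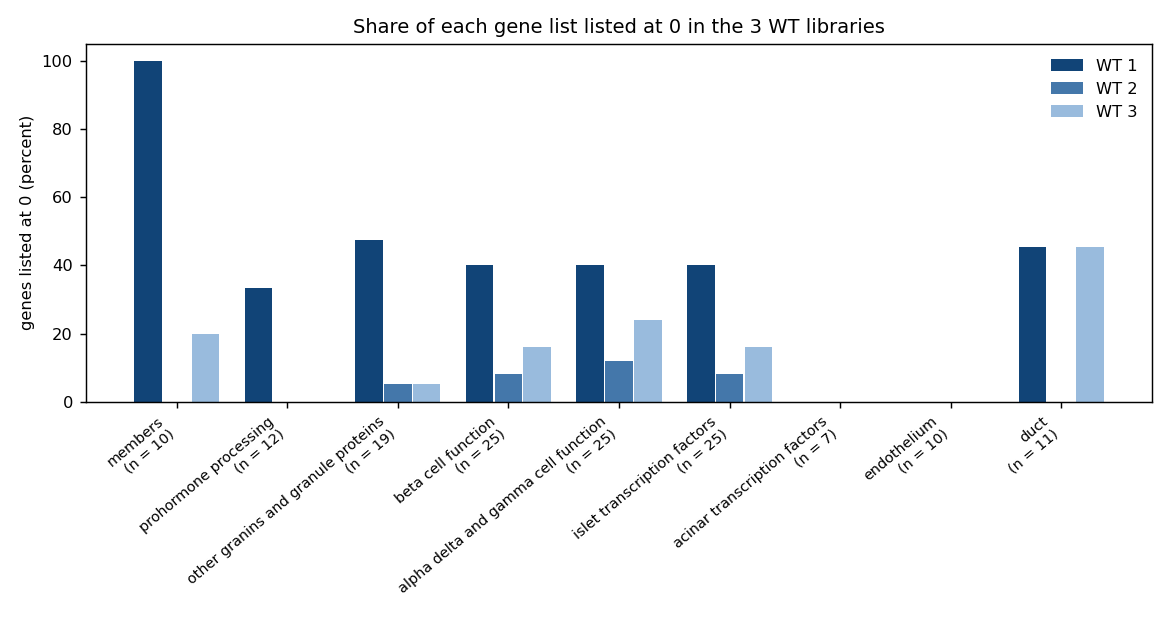
Percent of genes listed at 0 in each WT library, for the 10 islet hormones and granins and for 8 other gene lists (n is the number of genes of the list in the files). WT replicate 1 lists all 10 hormones and granins at 0 and 33.3% to 47.4% of the islet and granule lists, beside 45.5% of the duct list and no acinar transcription factor or endothelial gene.

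Other sources of these peptides were looked for, since Pyy is made in the gut and granins in nerves. The 16 neuron and nerve genes summed to 0.483, 0.998 and 0.505 in WT and 2.09, 4.87 and 5.31 in Ela1-Myc, none of them high enough to test; 5, 2 and 7 of them were at 0 in WT and 2, 1 and 0 in Ela1-Myc, and Prph was at 0 in all 3 WT libraries. The 11 gut epithelium genes summed to 0.437, 0.595 and 0.392 in WT and 1.03, 2.16 and 1.96 in Ela1-Myc. Of the gut-defining genes, Cdx2, Fabp2 and Sis were at 0 in all 3 Ela1-Myc libraries. In WT they were at or under 0.00823 and shared 1 value per library. Vil1 was at 0, 0.203 and 0.0295 in WT, against 0.151, 0.284 and 0.426 in Ela1-Myc, and overlapped, as did Cdx1, Apoa4, Tff3 and Tph1. Fabp1, Apoa1 and Lgals4 were higher in every Ela1-Myc library than in every WT library. The nerve and gut sums were both higher in each Ela1-Myc library than in each WT library. So were Gcg, Sst, Ppy, Pyy and Chgb on the deposited scale, beside 75.3% of all tested genes. After scaling Pyy and Chgb overlapped between the groups. The part of nerve in the granin values and of gut in the Pyy values was not tested.

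The genes whose pattern over the 6 libraries was most like the mean of the hormones were not islet genes. With listed zeros kept as 0 and after scaling, the 8 closest of 8793 tested genes were 2010107E04Rik (Pearson r = 0.994), Rpl31, Usmg5, Kat5, Etfb, Ndufc2, Rps15a-ps6 and Cd151 (r = 0.988). Rpl31, a ribosomal protein gene, was at 0, 95.7 and 8.85 in WT, against 198, 197 and 196 in Ela1-Myc, and like the hormones 5 of the 8 were listed at 0 in WT replicate 1. Of the islet genes Resp18 came closest (r = 0.964, place 79), then Pcsk2 (r = 0.942, place 172) and Scg5 (r = 0.921, place 270). These correlations rest on 6 libraries that share their scale factors and on the same zeros, and describe likeness only.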

How the data were processed

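Polyadenylated RNA from whole pancreas was measured in 6 libraries. The deposited values are adjusted FPKM per gene, per the file headers; the submitters' processing notes name TopHat2 2.0.4, Bowtie and Cufflinks 2.0.2, beside CASAVA 1.8, FastQC 0.9.4 and affy, with the builds GRCm38 and mm10. How the values were adjusted was not found in these sources. All values were divided by 100000; read counts were not used here, so depth is unknown and no counting interval is given. The 23422 rows gave 23099 symbols. The 8802 genes with a mean of at least 1 were fitted in R 4.3.3 by limma 3.58.1, after log2(value + 1), with a trended variance and the group as the only term, two-sided, at an adjusted p of 0.05; fold changes of low genes are understated on this scale. Zeros entered as measured values. The fit was tested on simulated data with 200 changed genes. Sums, shares and ratios per library were compared by exact permutation tests; with 3 against 3 libraries none can reach 0.05. A p-value here reflects only how these samples vary, which may be technical variation.

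The 10 genes, the lists and the tests were chosen with earlier results of these data known. Named genes were all 10 genes, Myc, the defining cell type markers, and per list up to 3 called genes with the largest change and up to 2 not called with the highest mean. The rule for the genes most like the hormones required values above 0 in all 6 libraries, which no hormone had, so zeros were kept as 0. Alternatives covered scaling, pseudocount, filter, variance model and each library left out. Sequences are from GENCODE M21 and RefSeq GRCm38.p6, compared with Biopython 1.88; Python 3.11.15 and matplotlib 3.10.9 were used. Some genes that the naming rule covers are not reported here.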

Additional observations from a re-analysis of the deposited data

How the results depend on the processing

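The number of the 10 genes called higher depended on the processing, and none was called lower in any fit (limma; none at an unadjusted p under 0.05). From 7 it went to 2 after median-of-ratios scaling, 2 after quantile normalization, 3 with the digestive enzymes left out and totals made equal, 3 with a pseudocount of 0.1, 0 with a pseudocount of 1 on the deposited scale (2 at an unadjusted p under 0.05), 3 with no filter, 4 with no variance trend, 3 with zeros set to missing and 0 with that and scaling (2 at an unadjusted p under 0.05); array weights, whose fit did not reach its convergence tolerance, gave 8. Leaving out 1 library gave 0 to 9: without WT replicate 2 or 3 it was 9, without Ela1-Myc replicate 1 or 3 it was 4, and after scaling 0 without WT replicate 3, Ela1-Myc replicate 2 or Ela1-Myc replicate 3 (2 each at an unadjusted p under 0.05). The restriction to genes above 0 in all 6 libraries kept none of the 10, so it gave no value for them. Setting zeros to missing was chosen after the data were seen. The share of all tested genes called is given above for the scalings, zeros set to missing and WT replicate 1 left out. For the other settings that share was not drawn up. Their counts, for the 10 genes and for the islet genes below, therefore cannot be set against a background.

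Iapp, Chga and Scg2 changed sign, to -0.76, -0.13 and -0.41 with zeros missing and scaling, and to -0.82, -0.19 and -0.47 without WT replicate 1 after scaling; the cause was not tested. For the 40 tested islet genes outside the 10, the 17 higher became 2, 1 and 3 under median-of-ratios, quantile and equal totals, 5 with a pseudocount of 1 on the deposited scale, 0 among genes above 0 in all 6 after scaling and 0 with zeros missing and scaling, and 1 to 20 with 1 library left out. The 1 lower became 9, 14 and 7 under the same 3 scalings, 0 with either other pseudocount, 10 among genes above 0 in all 6, 5 with array weights, 2 with no trend, 9 with zeros missing and scaling, and 0 to 11 with 1 library left out.

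The difference in summed hormones, 1944, became 585 after median-of-ratios scaling, 949 with equal totals and 437 without Ins1 and Ins2 (1467 to 2701 with 1 library left out), and that in summed granins, 15.3, became 2.68 and 1.23 under median-of-ratios and quantile scaling (9.85 to 21.8). The Ins2 share differed by -5.65 percentage points, by -11.7 without Iapp in the sum. With 1 library left out the share differences ran from -1.41 to 3.27 for Ins1, -8.04 to -3.50 for Ins2, -0.80 to 0.66 for Pyy (0.096 without Ela1-Myc replicate 1) and -8.90 to -2.86 for Iapp, and the log2 ratios from -0.23 to 1.26 for Ins1 per Ins2, -1.35 to -0.56 for Iapp per Ins2, 1.95 to 5.67 for Sst per Ins2, -0.79 to 1.62 for Pyy per Ins2 and -0.10 to 1.24 for Chgb per Chga. The ratios of Gcg and Ppy to Ins2 kept their direction without each library that left a value, as did the shares of Gcg, Sst and Ppy. No paired analysis was possible because the labels number no replicates; the numbers used here follow the order of the sample records and pair nothing.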
